A study of Mus musculus with 36 samples.

Results

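Lipid-associated macrophages are scavenging macrophages that gather in tissues loaded with fat, and 10 genes that are widely used to mark them were followed here in mouse liver. The 10 genes were Trem2, Gpnmb, Cd9, Spp1, Lgals3, Fabp5, Ctsd, Lpl, Cd63 and Itgax, taken by symbol. Earlier results of these data were known when they were chosen. All 10 were present among the 24421 genes of the count tables. Whole-liver RNA came from 36 male C57BL/6J mice, obtained at 7 weeks of age and given a choline-deficient, amino acid-defined high-fat diet (CDAHFD) over 12 weeks, which causes steatohepatitis with fibrosis. In the first experiment, an HFD followed for 2 weeks, and the mice received weekly either Fc, a plain antibody fragment, at 4.3 mg/kg (Control_HFD, n = 10) or Fc(mML1)B3 at 5 mg/kg (Treated_HFD, n = 10). In the second, a standard diet followed for 10 days, and the same doses of Fc (Control_Standard_diet, n = 9) or Fc(mML1)B3 (Treated_Standard_diet, n = 7) were injected on days 1, 4 and 7. Fc(mML1)B3 carries a macrocyclic peptide sequence that binds Met, the receptor of hepatocyte growth factor, in a loop of the same fragment, and acts as a Met agonist. All groups had the CDAHFD, and no mouse kept on a normal diet throughout was analysed here. The diet therefore cannot be told apart from the experiment, the length of the last phase and the number of injections.

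TREM2 is a surface receptor for lipids and lipoproteins that signals through the adaptor TYROBP, and it is needed for macrophages to take on the lipid-associated state. In fatty livers such cells derive largely from recruited monocytes, settle around lipid-laden hepatocytes and fibrotic areas, and differ from Kupffer cells, the resident macrophages marked by Clec4f. Their typical genes serve lipid uptake and binding (Lpl, Fabp5), lysosomal breakdown (Ctsd, Cd63, Gpnmb), adhesion and membrane organisation (Cd9, Itgax) and secretion (Spp1, Lgals3). None of the 10 is exclusive to macrophages, and Spp1 in particular is also made by bile duct cells. In bulk liver RNA, fewer cells of a type and less RNA per cell cannot be told apart.

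Total counts per library ranged from 14949035 to 28466853, with a median of 23558194.5. Levels are given as CPM, the counts of a gene relative to those of its whole library after scaling by TMM, and the least read of the 10 genes still rested on at least 250 reads in every library. No marker of hepatocytes, macrophages or Kupffer cells was at 0 in any group, although 1 of the 8 hepatocyte genes, Ass1, had too few reads to be tested. A library of the Treated_HFD group, replicate 5, stood apart from the other 9 of its group. Its 8 hepatocyte markers summed to 79773 CPM against 103466 to 155906, its 7 bile duct markers to 197.9 against 50.12 to 127.8, its 11 general macrophage markers to 1597 against 838.8 to 1178, and its total count was the lowest of all. Counts under the HFD that change without it are therefore given both ways.

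On mm10, none of the 10 genes shares exonic sequence with a neighbour. Trem2 lies on chromosome 17 (48346401 to 48352276, plus strand), Gpnmb on chromosome 6 (49036518 to 49058182, plus strand), Spp1 on chromosome 5 (104435111 to 104441053, plus strand), Itgax on chromosome 7 (128129568 to 128150657, plus strand) and Ctsd on chromosome 7 (142375916 to 142387870, minus strand). Promoter sequence from RefSeq (GRCm38.p6) was matched for 8 of the 10 genes, and the 250 bases before each start were searched on both strands for 3 short motifs. These were CACGTG, an E-box bound by the MiT/TFE factors that drive lysosomal genes, TGACTCA, bound by AP-1, and GAGGAA, the core bound by the myeloid factor PU.1. CACGTG was found for Ctsd alone, at 245 and 98 bases before the start, against 6.02% of 32851 promoters. TGACTCA was found for Itgax alone, 56 bases before the start, against 4.46% of promoters. GAGGAA was found for Trem2, Spp1 and Cd63, against 23.3% of promoters. The sequences below are those of the receptor that defines the state (Trem2), of the pair whose levels followed each other most closely (Gpnmb and Itgax), of the gene that followed the others least after Lpl (Spp1) and of the gene with a repeated E-box (Ctsd). They run 5′ to 3′ on the strand of the gene up to the base before the start listed with the promoter, from which the distances above are counted. For Itgax that start lies 18 bases upstream of the gene start given above, and for Ctsd 43 bases inside the gene. The capitals mark the motifs on either strand.
Trem2, chr17:48346281-48346400: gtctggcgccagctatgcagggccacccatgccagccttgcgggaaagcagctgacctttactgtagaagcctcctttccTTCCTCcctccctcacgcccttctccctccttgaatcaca
Gpnmb, chr6:49036398-49036517: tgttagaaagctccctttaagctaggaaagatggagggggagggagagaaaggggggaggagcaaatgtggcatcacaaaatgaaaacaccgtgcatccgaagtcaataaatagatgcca
Itgax, chr7:128129430-128129549: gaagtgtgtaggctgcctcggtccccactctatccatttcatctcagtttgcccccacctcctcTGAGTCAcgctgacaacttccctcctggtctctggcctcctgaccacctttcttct
Spp1, chr5:104434991-104435110: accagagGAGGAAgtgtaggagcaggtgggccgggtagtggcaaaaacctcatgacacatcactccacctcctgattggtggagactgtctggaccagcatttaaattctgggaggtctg
Ctsd, chr7:142387828-142388077: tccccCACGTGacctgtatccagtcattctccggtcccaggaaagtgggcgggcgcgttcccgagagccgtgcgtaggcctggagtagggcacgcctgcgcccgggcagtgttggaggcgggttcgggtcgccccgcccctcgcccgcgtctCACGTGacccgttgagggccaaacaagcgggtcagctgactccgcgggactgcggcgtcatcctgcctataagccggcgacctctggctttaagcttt

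Per kilobase of exon, Ctsd, which encodes the lysosomal aspartic protease cathepsin D, had the highest median level of the 10 in each group, from 366.9 CPM per kilobase in Treated_Standard_diet to 475.3 in Control_HFD. Spp1, which encodes the secreted phosphoprotein osteopontin, came next in each group, with medians from 160.5 in Treated_HFD to 304.0 in Control_HFD. Gpnmb, Fabp5, Lgals3, Cd63, Lpl and Cd9 followed in an order that differed between groups, and in Control_HFD their ranges overlapped from one to the next. Trem2 was ninth, with medians from 17.16 to 31.09 CPM per kilobase, and Itgax was lowest, with medians from 5.578 to 8.521. The ranges of Trem2 and Itgax did not overlap in Control_HFD.

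**Figure D1:**
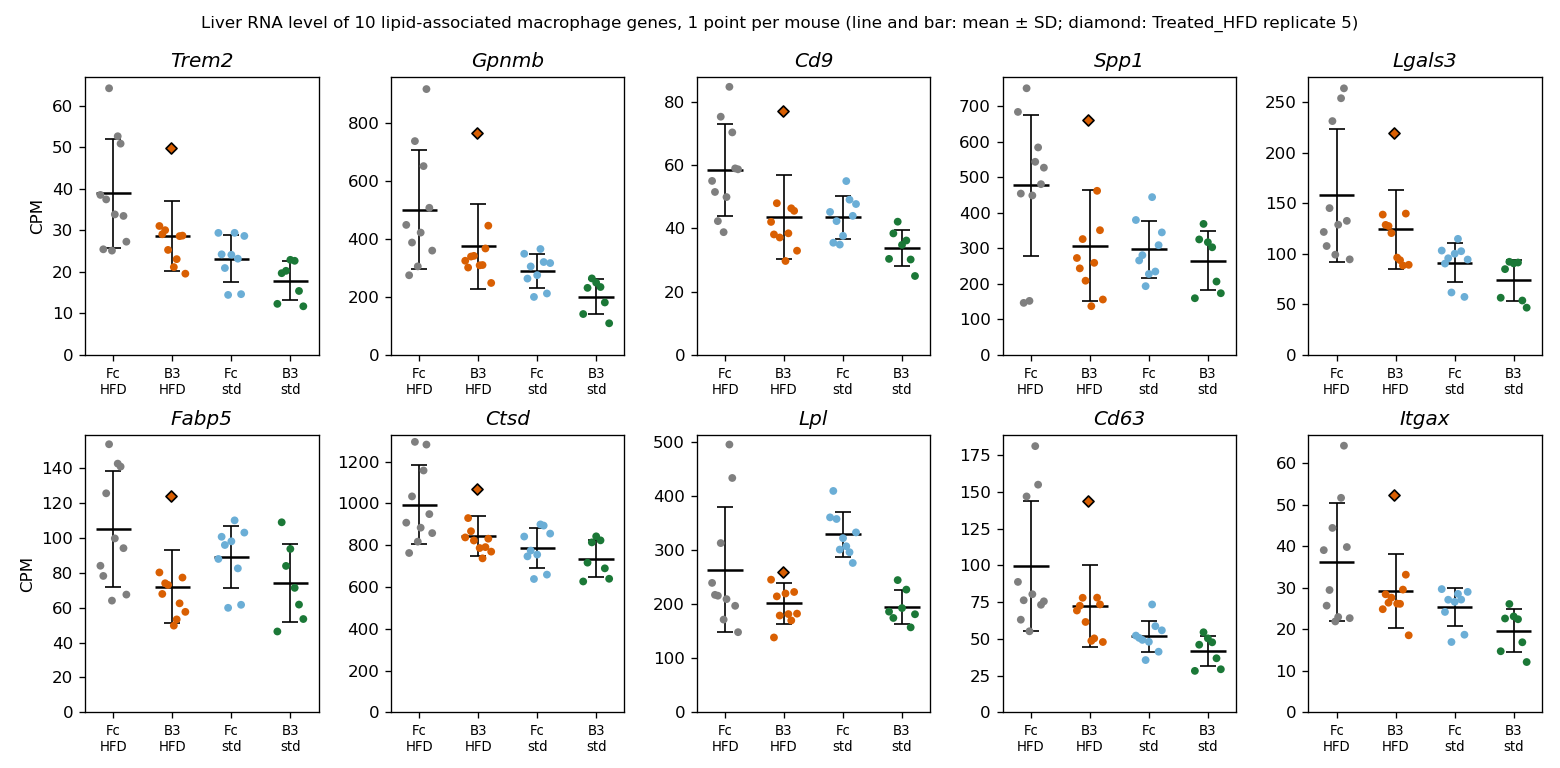
CPM of the 10 genes (y axis, from 0) in each mouse, by group (x axis; Fc and B3, short for Fc(mML1)B3, under the HFD or the standard diet, std). Each point is 1 mouse, lines and bars are mean ± SD, and the diamond is replicate 5 of Treated_HFD, at 766.5 CPM for Gpnmb against at most 445.8 in the other 9. Lpl under the standard diet is the sole gene and comparison in which no point of one group reaches the other, at 276.6 to 409.9 CPM with Fc and 157.4 to 244.9 with Fc(mML1)B3.

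The first comparison asks what the Met agonist did to these genes while the mice stayed on the HFD. All 10 had lower median CPM and lower fitted levels in Treated_HFD than in Control_HFD, and the median of their log2 fold changes was -0.42 against -0.01 over all genes tested. With edgeR's quasi-likelihood test and Benjamini-Hochberg adjustment over all 13299 genes tested, 1 of the 10, Fabp5, passed an adjusted p of 0.05, and it was lower, while 6 of the 10 had an unadjusted p below 0.05. Of all genes, 14.8% were called, 6.68% as lower and 8.14% as higher. With replicate 5 of Treated_HFD left out, 7 of the 10 were called lower, Trem2, Gpnmb, Cd9, Spp1, Fabp5, Ctsd and Cd63, against 21.3% of all genes called in that fit. Lgals3, Itgax and Lpl then had adjusted p from 0.0738 to 0.0972.

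Fabp5, a carrier of fatty acids in the cytosol, ranged from 64.03 to 153.6 CPM in Control_HFD, with a median of 96.87, and from 49.71 to 123.8 in Treated_HFD, with a median of 70.44. The groups overlapped, but 9 of the 10 treated mice lay below the Fc median and 4 lay below every Fc mouse. Fabp5 fell by 0.54 ± 0.17 (SE) on the log2 scale, with an adjusted p of 0.0374 by edgeR. The call was lost in 12 of 20 fits that each left out 1 library, with adjusted p up to 0.0788. These were the fits without Control_HFD replicates 3, 4, 7 or 8 and those without Treated_HFD replicates 2, 3, 4, 6, 7, 8, 9 or 10. Lpl, which encodes the lipase that releases fatty acids from lipoproteins, had a median of 216.8 CPM (148.5 to 495.8) in Control_HFD and 198.8 CPM (138.7 to 260.4) in Treated_HFD. Its log2 fold change was -0.39 ± 0.19 (SE, adjusted p = 0.161 by edgeR), and 3 mice given Fc lay above every treated mouse.

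Among the surface proteins, Trem2 had a median of 35.62 CPM (25.1 to 64.18) in Control_HFD and 28.65 CPM (19.55 to 49.73) in Treated_HFD. Its highest treated value was that of replicate 5, the next being 31.03. The log2 fold change of Trem2 was -0.44 ± 0.18 (SE, adjusted p = 0.0957 by edgeR), and it was -0.56 with an adjusted p of 0.0149 without that replicate. Gpnmb, a glycoprotein of the lysosomal and plasma membrane that carries an integrin-binding motif, had a median of 435.3 CPM (274.8 to 917.1) in Control_HFD and 332.0 CPM (248.2 to 766.5) in Treated_HFD. The log2 fold change of Gpnmb went from -0.41 ± 0.21 (SE, adjusted p = 0.196 by edgeR) with all mice to -0.59 (adjusted p = 0.026) without replicate 5. Cd9, a tetraspanin that organises membrane proteins, had a median of 56.8 CPM (38.78 to 84.7) in Control_HFD and 40.22 CPM (29.67 to 77.13) in Treated_HFD, where 5 of 10 mice lay below every Fc mouse. Its log2 fold change was -0.42 ± 0.15 (SE, adjusted p = 0.0677 by edgeR), and it was called by DESeq2 (adjusted p = 0.047) and limma-voom (adjusted p = 0.0118), and by edgeR without replicate 5 (-0.55, adjusted p = 0.00419). Itgax, the alpha chain of the CD11c integrin, had medians of 34.3 and 27.05 CPM and overlapping ranges of 21.92 to 64.26 and 18.58 to 52.45, with a log2 fold change of -0.30 ± 0.19 (SE, adjusted p = 0.311 by edgeR).

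Of the secreted products, Spp1 varied most, from 146.5 to 750.9 CPM (median 504.0) in Control_HFD and from 137.2 to 660.7 CPM (median 266.1) in Treated_HFD. Although 9 of 10 treated mice lay below the Fc median, 2 mice given Fc, at 146.5 and 152.1 CPM, lay near the lowest treated mice, at 137.2 and 156.0 CPM. Its log2 fold change of -0.63 ± 0.29 (SE) had the largest size of the 10 and an adjusted p of 0.144 by edgeR. Without replicate 5 it was -0.83 with an adjusted p of 0.0317. Lgals3, which encodes galectin-3, a lectin secreted by activated macrophages, had medians of 130.7 and 124.0 CPM and a log2 fold change of -0.34 ± 0.20 (SE, adjusted p = 0.263 by edgeR). Of the lysosomal members, Ctsd had medians of 928.7 CPM (763.1 to 1295) and 827.1 CPM (737.4 to 1067) and a log2 fold change of -0.24 ± 0.10 (SE, adjusted p = 0.125 by edgeR). Cd63, a tetraspanin of late endosomes, had medians of 78.29 and 70.9 CPM and a log2 fold change of -0.46 ± 0.22 (SE, adjusted p = 0.169 by edgeR). Without replicate 5 the log2 fold change was -0.63 (adjusted p = 0.029) for Cd63 and -0.28 (adjusted p = 0.0449) for Ctsd. All Fc libraries under the HFD and no treated ones belong to 1 index series, as read from the numbers in the library names, so protein and series cannot be told apart under the HFD. Against the 4 treated libraries of one series and against the 6 of the other, 0 of the 10 genes were called by edgeR. Fabp5 was at -0.50 and -0.56 on the log2 scale, beside -0.54 with all treated libraries. These fits hold fewer mice, so the missing calls do not show that a change was absent. The share of all genes called in them is not given here.

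The same contrast on the standard diet gave 10 negative values of 10, with a median log2 difference of -0.33 against -0.01 over all genes tested. By edgeR, 3 of the 10, Lpl, Gpnmb and Cd9, fell at an adjusted p below 0.05, and none rose. Of the 13570 genes tested, 16.1% were called, 7.55% as lower and 8.56% as higher. Lpl in Control_Standard_diet ranged from 276.6 to 409.9 CPM with a median of 322.5, and in Treated_Standard_diet from 157.4 to 244.9 CPM with a median of 186.5. Every treated mouse was thus below every Fc mouse, as held for 2.8% of genes in either direction. Lpl fell by 0.76 ± 0.09 (SE) on the log2 scale, or 1.69-fold, with an adjusted p of 1.06e-05 by edgeR, the 75th smallest p of all genes. It was called in each of the 16 fits that left out 1 library, and also within the index series that holds 4 Fc and all 7 treated libraries (-0.64, adjusted p = 0.00183).

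Gpnmb had a median of 305.2 CPM (200.0 to 365.3) with Fc and 231.3 CPM (109.1 to 263.9) with Fc(mML1)B3 under the standard diet. Each of the 7 treated mice lay below the Fc median, and 3 lay below every Fc mouse. Gpnmb fell by 0.53 ± 0.16 (SE) on the log2 scale (adjusted p = 0.032 by edgeR), a call that held in 10 of 16 leave-one-out fits and was lost without Control_Standard_diet replicates 1, 6 or 9 or Treated_Standard_diet replicates 1, 6 or 7. Within the single index series it was -0.60 with an adjusted p of 0.0982. Cd9 had a median of 43.93 CPM (34.85 to 54.92) with Fc and 34.76 CPM (24.93 to 42.09) with Fc(mML1)B3, with 4 of 7 treated mice below every Fc mouse. Cd9 fell by 0.36 ± 0.10 (SE) on the log2 scale (adjusted p = 0.0224 by edgeR), and it lost the call without Treated_Standard_diet replicate 6 (highest adjusted p 0.0515). In a fit over all 36 libraries, which share 1 estimate of spread, Lpl alone kept an adjusted p below 0.05 (0.0063), with Gpnmb at 0.195 and Cd9 at 0.203.

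The other 7 members did not pass the test under the standard diet. Itgax had medians of 27.15 and 22.45 CPM and a log2 fold change of -0.36 ± 0.15 (SE, adjusted p = 0.0989 by edgeR). Trem2 had a median of 24.1 CPM (14.44 to 29.38) with Fc and 19.67 CPM (11.7 to 22.88) with Fc(mML1)B3, and its log2 fold change was -0.38 ± 0.17 (SE, adjusted p = 0.134 by edgeR). All 7 treated mice lay below the Fc median of Trem2. Fabp5, called under the HFD, had medians of 95.89 and 71.34 CPM, ranges of 59.91 to 110.0 and 46.36 to 108.9, and a log2 fold change of -0.26 ± 0.16 (SE, adjusted p = 0.293 by edgeR). Spp1 was the sole member with a higher treated median, 303.1 CPM (159.6 to 368.9) against 280.9 CPM (193.6 to 444.3), while its fitted log2 fold change was -0.17 ± 0.18 (SE, adjusted p = 0.572 by edgeR). Lgals3, Cd63 and Ctsd had log2 fold changes of -0.31, -0.31 and -0.09 with adjusted p from 0.164 to 0.476.

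**Figure D2:**
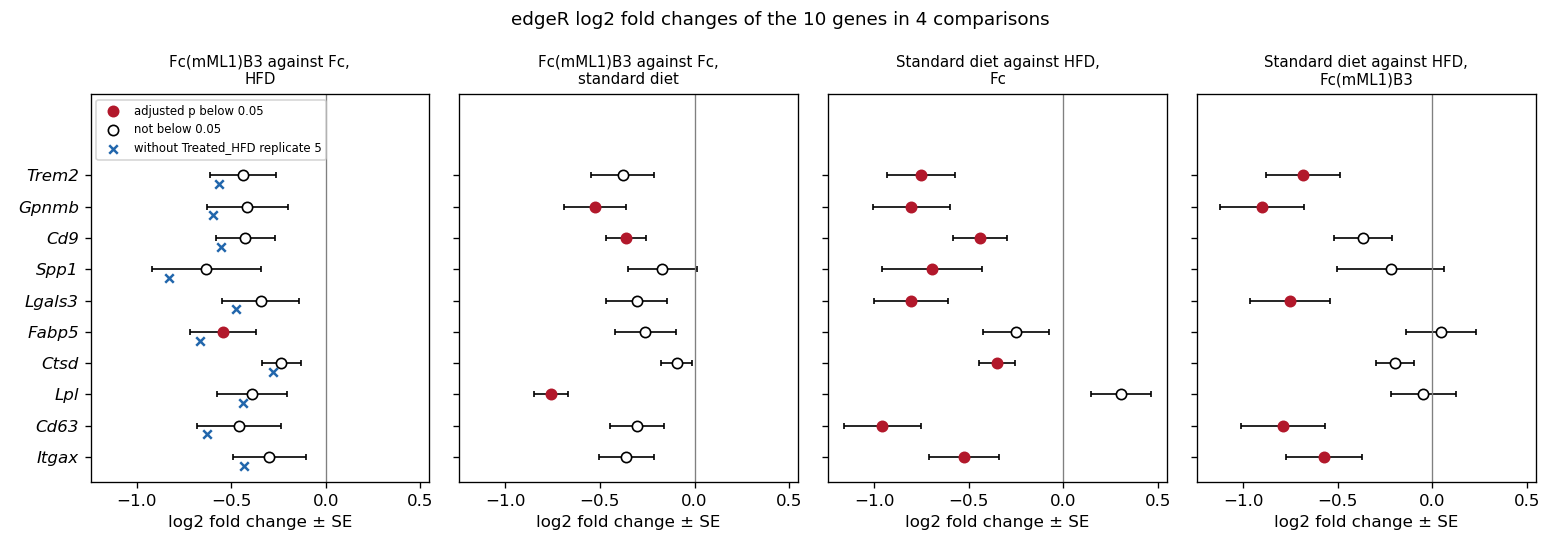
Log2 fold change of the 10 genes (x axis, points, with bars of 1 SE from edgeR; y axis, gene) in 4 comparisons. Filled points have an adjusted p below 0.05, and crosses in the first panel are the fit without replicate 5 of Treated_HFD. All 10 points are left of 0 in the first and second panels, with 1 and 3 filled, and 8 and 5 are filled in the other two.

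Whether the effect of the protein differed between the experiments was asked with an interaction term, fitted to the 36 libraries together. None of the 10 genes passed, 0 of 10 also at an unadjusted p below 0.05 and with DESeq2 or limma-voom, against 9.06% of all genes called by edgeR, 4.4% as lower and 4.66% as higher. The smallest unadjusted p was that of Lpl, 0.141, with a difference of -0.35 on the log2 scale (95% interval -0.81 to 0.11). For Fabp5 the difference was 0.30 (-0.20 to 0.80), for Spp1 0.47 (-0.28 to 1.23) and for Trem2 0.07 (-0.44 to 0.59). These intervals are wide, so the calls of Fabp5 under one diet and of Lpl, Gpnmb and Cd9 under the other are not shown to differ between the experiments.

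Between the experiments, most of the 10 genes were lower after the standard diet in mice given Fc. These comparisons use the same libraries as those above, in 1 fit over the 36. With Fc, 8 of the 10 were lower under the standard diet than under the HFD by edgeR over 14105 genes, of which 47.9% were called and 24.6% were called lower. The median log2 fold change was -0.61 for the 10 genes and -0.05 for all genes. Cd63 fell most, from a median of 78.29 CPM (55.15 to 181.0) to 50.65 CPM (35.58 to 73.36), by 0.96 ± 0.21 (SE) on the log2 scale (adjusted p = 0.000233 by edgeR). Lgals3 went from a median of 130.7 CPM (94.51 to 263.7) to 95.6 CPM (57.38 to 114.8) and fell by 0.80 ± 0.20 (SE, adjusted p = 0.00095 by edgeR). Gpnmb fell by 0.80 ± 0.20 (SE, adjusted p = 0.0015 by edgeR) and Trem2 by 0.75 ± 0.18 (SE, adjusted p = 0.000742 by edgeR). Each of the 9 mice on the standard diet lay below the HFD median of Trem2, of Gpnmb and of Lgals3. Spp1 fell by 0.69, Itgax by 0.53, Cd9 by 0.44 and Ctsd by 0.35, with adjusted p from 0.00235 to 0.0291.

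The exceptions with Fc were both genes of lipid handling. Fabp5 had nearly the same median in both, 96.87 and 95.89 CPM, with a log2 fold change of -0.25 ± 0.17 (SE, adjusted p = 0.233 by edgeR). Lpl had the higher median under the standard diet, 322.5 against 216.8 CPM, with a log2 fold change of 0.31 ± 0.16 (SE, adjusted p = 0.11 by edgeR). With limma-voom it was 0.49 with an adjusted p of 0.00235, and it was called by edgeR without Control_HFD replicate 7 or 8. Spp1 was not called without Control_HFD replicates 1 or 4 or Control_Standard_diet replicates 4 or 5 (highest adjusted p 0.0702), and Itgax was not called without Control_HFD replicate 8 (adjusted p = 0.0555).

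With Fc(mML1)B3, 5 of the 10 were lower under the standard diet, Gpnmb, Cd63, Lgals3, Trem2 and Itgax, against 38.5% of all genes called, 17.9% as lower and 20.7% as higher. Gpnmb went from a median of 332.0 CPM in Treated_HFD to 231.3 CPM in Treated_Standard_diet and fell by 0.90 ± 0.22 (SE) on the log2 scale (adjusted p = 0.0015 by edgeR), with 5 of 7 mice below every mouse of the HFD group. Cd63 fell by 0.79 and Lgals3 by 0.75, with adjusted p of 0.00478 and 0.00489 by edgeR. Itgax fell by 0.57, and this call was lost without Treated_HFD replicate 5 or Treated_Standard_diet replicates 1 or 7. Lpl and Fabp5 had log2 fold changes of -0.05 ± 0.17 and 0.05 ± 0.19 (SE), with adjusted p of 0.851 and 0.862 by edgeR. For Lpl the medians were 198.8 and 186.5 CPM, so that of the 4 groups Control_Standard_diet had the highest Lpl.

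Markers of other cells differed in the same comparisons. With Fc, from the HFD to the standard diet, 5 of 7 T and NK cell genes were called lower by edgeR, among them Cd3e by 1.16, Cd4 by 1.15 and Cd8a by 1.25 on the log2 scale. Monocyte genes were called lower in 5 of 7, such as Ly6c2 by 1.03, dendritic cell genes in 4 of 8, and neutrophil genes in 2 of 6. Of 10 stellate cell genes 7 fell, including Acta2 by 1.37 and the collagen gene Col1a1 by 1.18, and 1, Hgf, rose by 0.85. Among bile duct genes Epcam fell by 1.03 and Krt23 by 0.85. Kupffer cell genes were called lower in 4 of 12, C1qa, C1qb, C1qc and Marco, and 1, Cd163, was called higher. Of 7 hepatocyte genes 3 rose, Cps1 by 0.79, Apob by 0.63 and Hnf4a by 0.61. The median log2 fold change was -1.15 for T and NK cell genes, -0.71 for monocyte, -0.54 for stellate cell, -0.54 for bile duct and 0.21 for hepatocyte genes, beside -0.61 for the 10 members. With Fc(mML1)B3, in a fit that includes replicate 5 of Treated_HFD, 6 of 10 stellate cell, 3 of 8 dendritic cell and 2 of 7 T and NK cell genes were called lower by edgeR, and 0 of 7 monocyte genes (1 at an unadjusted p below 0.05). In that comparison 2 of 7 hepatocyte genes were called higher. Their part in the differences of the 10 genes between the experiments was not tested.

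Genes that act with the members were read from lists of partners. Tyrobp, the adaptor of TREM2, had medians of 73.5 CPM in Control_HFD, 56.04 in Treated_HFD, 55.44 in Control_Standard_diet and 54.03 in Treated_Standard_diet. It was lower under the standard diet with Fc, by 0.58 ± 0.14 (SE) on the log2 scale (adjusted p = 0.000915 by edgeR), and its log2 fold changes with Fc(mML1)B3 were -0.33 (adjusted p = 0.121) under the HFD and -0.10 (adjusted p = 0.656) under the standard diet. Of the 8 genes of TREM2 signalling, 0 were called by edgeR with Fc(mML1)B3 under the HFD, where 1 had an unadjusted p below 0.05. Without replicate 5 of Treated_HFD 1 was called, Tyrobp, at -0.40 (adjusted p = 0.0378). On the standard diet 1 was called, Adam17, whose protease sheds TREM2 from the surface, at -0.16 (adjusted p = 0.0275). Itgb2, the beta chain that pairs with ITGAX, had log2 fold changes of -0.30 (adjusted p = 0.16) and -0.26 (adjusted p = 0.168) with Fc(mML1)B3 under the HFD and the standard diet. With Fc it fell by 0.43 from the HFD to the standard diet (adjusted p = 0.0124 by edgeR).

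Of the 8 receptors of osteopontin, 4 fell with Fc(mML1)B3 under the standard diet, where Spp1 itself was not called. They included the integrin chains Itgav (-0.23, adjusted p = 0.0023 by edgeR) and Itga9 (-0.17, adjusted p = 0.0452) and the hyaluronan receptor Cd44 (-0.31, adjusted p = 0.0291). Under the HFD 1 of 8 was called, the integrin chain Itga5, which rose by 0.52 ± 0.08 (SE) on the log2 scale (adjusted p = 0.000105 by edgeR). Without replicate 5 of Treated_HFD it was 0.53, and 2 of the other receptors, Cd44 and Itgb5, were called lower. Among 9 measured regulators of lipoprotein lipase, Apoa5, an activator, rose with Fc(mML1)B3 under both diets, by 0.48 (adjusted p = 0.011) and 0.20 (adjusted p = 0.0386). Sel1l, which helps the lipase leave the endoplasmic reticulum, rose by 0.40 under the HFD (adjusted p = 0.0118) and fell by 0.19 under the standard diet (adjusted p = 0.0269). Under the HFD these 2 of the 9 were called. Without replicate 5 of Treated_HFD 3 were called higher, with Apoc2 added at 0.44 (adjusted p = 0.0234 by edgeR). Angptl4, an inhibitor of the lipase, and Gpihbp1, its anchor on capillaries, were not called with Fc(mML1)B3 under either diet, with adjusted p from 0.139 to 0.85. Of 10 further tetraspanins, Tspan4 rose under both diets, by 0.39 (adjusted p = 0.026) and 0.69 (adjusted p = 0.000195), in contrast to Cd9 and Cd63, whose fitted changes were negative. On the standard diet Tspan31 also rose, by 0.16 (adjusted p = 0.0089), and Tspan14 fell by 0.22 (adjusted p = 0.039). Under the HFD Tspan4 was the sole one called, and without replicate 5 Cd37, Cd53, Tspan3 and Tspan8 were called lower as well. Cd81, a partner of CD9, had log2 fold changes of 0.09 and -0.10 with adjusted p of 0.486 and 0.0587.

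A further 20 genes of the lipid-associated macrophage state were counted beside the 10. With Fc(mML1)B3, 2 of 20 fell under the HFD, Anxa5 by 0.37 and Ms4a7 by 0.82, and none rose, with a median log2 fold change of -0.29. Without replicate 5 of Treated_HFD 9 of 20 fell, and the median was -0.41. On the standard diet 3 of 20 fell, Plin2 by 0.46 (adjusted p = 3.02e-05 by edgeR), Capg by 0.42 and Fabp4 by 0.30, and the median was -0.21. Plin2 coats lipid droplets in hepatocytes as well as in macrophages. From the HFD to the standard diet, 15 of 20 fell with Fc and 10 of 20 with Fc(mML1)B3, and none rose. Among 28 further lysosome genes, Npc1, which exports cholesterol from lysosomes, fell by 0.51 with Fc(mML1)B3 under the HFD, and the proton pump subunit Atp6ap1 rose by 0.23. Of the 28, 2 were called lower and 1 higher under the HFD, and 5 lower and 1 higher without replicate 5 of Treated_HFD. On the standard diet none of the 28 fell and Grn, the precursor of granulins, rose by 0.23 (adjusted p = 0.0352 by edgeR). With Fc, 15 of the 28 fell and 4 rose from the HFD to the standard diet. Of the 4 MiT/TFE factors 0 were called by edgeR with Fc(mML1)B3, with 0 and 3 at an unadjusted p below 0.05 under the HFD and the standard diet.

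Most fitted changes of general macrophage markers with Fc(mML1)B3 were negative, but few passed the test. Of 11 such genes, all 11 had negative log2 fold changes with Fc(mML1)B3 under the HFD, with a median of -0.32, and 1, Mpeg1, was called (-0.36, adjusted p = 0.0324 by edgeR). Without replicate 5 of Treated_HFD 5 of 11 were called lower, Mpeg1, Cd68, Lyz2, Fcer1g and Laptm5, and the median was -0.37. Their summed level ranged from 914.9 to 1729 CPM in Control_HFD, 838.8 to 1597 in Treated_HFD, 709.7 to 1232 in Control_Standard_diet and 710.9 to 1040 in Treated_Standard_diet. For the standard diet 10 of 11 were negative and 0 were called by edgeR, with 2 at an unadjusted p below 0.05. With Fc, 7 of 11 fell from the HFD to the standard diet. Adgre1, which encodes the macrophage protein F4/80, had medians of 38.38 CPM in Control_HFD and 33.09 to 35.09 in the other groups, and was not called in any of the 4 comparisons. Their part in the changes of the 10 genes was not tested.

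Divided by that macrophage sum, Lpl stood at 0.2496 to 0.3977 in Control_Standard_diet and 0.1857 to 0.2601 in Treated_Standard_diet, so the groups nearly separated also on this scale. For Fabp5 under the HFD the ratio had a median of 0.07703 (0.06009 to 0.1028) with Fc and 0.06686 (0.05188 to 0.07917) with Fc(mML1)B3. For Trem2 it had a median of 0.0291 (0.02143 to 0.0388) with Fc and 0.02733 (0.02205 to 0.03114) with Fc(mML1)B3 under the HFD, and 0.02261 and 0.02141 under the standard diet. Other members had the higher median ratio with Fc(mML1)B3. Under the HFD these were Ctsd (0.8277 against 0.7671), Lgals3 (0.1172 against 0.113), Itgax (0.02814 against 0.02748) and Lpl (0.1955 against 0.1886). Under the standard diet they were Ctsd (0.8106 against 0.7675), Spp1 (0.2935 against 0.2784) and Lgals3 (0.08709 against 0.08624). The denominators hold Cd68 and other genes that macrophages of every kind express, and these ratios were not tested.

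Markers of other cells were also compared between the proteins. Of 11 Kupffer cell genes tested under the HFD, 1 was called by edgeR, Id3, which rose by 0.66 with Fc(mML1)B3 (adjusted p = 0.00227). Fitted changes were negative for 7 of the 11 and positive for 4, and 4 had an unadjusted p below 0.05. Marco had the next smallest p, with a log2 fold change of -2.06 (adjusted p = 0.0602 by edgeR). Under the standard diet 0 of 12 were called, 0 also at an unadjusted p below 0.05. Their sum ranged from 513.9 to 1339 CPM in Control_HFD, 519.6 to 957.2 in Treated_HFD, 537.5 to 938.5 in Control_Standard_diet and 610.3 to 815.8 in Treated_Standard_diet. Clec4f ranged widely within the HFD groups, from 7.264 to 93.47 CPM with Fc and from 6.591 to 112.0 with Fc(mML1)B3. Neutrophil genes fell under the HFD, 3 of 5 tested, S100a8 by 1.46, S100a9 by 1.27 and Csf3r by 0.50. Of 7 bile duct genes 0 were called by edgeR under the HFD (1 at an unadjusted p below 0.05) and 1, Sox9, fell under the standard diet, by 0.50 (adjusted p = 0.0402 by edgeR). Of 10 stellate cell genes 0 were called by edgeR under the HFD (1 at an unadjusted p below 0.05) and 2, Pdgfrb and Des, fell under the standard diet. Hepatocyte markers summed to 86345 to 146888 CPM in Control_HFD, 79773 to 155906 in Treated_HFD, 113554 to 144559 in Control_Standard_diet and 121284 to 136037 in Treated_Standard_diet. Of the 7 tested, 1 rose with Fc(mML1)B3 under the HFD, Hnf4a by 0.37, and 2 under the standard diet, Cyp2e1 by 0.25 and Cps1 by 0.19 (adjusted p from 0.0176 to 0.0313 by edgeR). Of 7 monocyte, 8 dendritic cell and 6 T and NK cell genes tested under the HFD, 0 were called by edgeR, with 3, 0 and 2 at an unadjusted p below 0.05. Without replicate 5 of Treated_HFD the monocyte genes Cx3cr1 and Plac8, 0 dendritic cell genes (1 at an unadjusted p below 0.05) and 1 T and NK cell gene (Cd3d) were called lower. That fit also called 1 bile duct gene, Krt23, and 3 stellate cell genes, Des, Pdgfrb and Lum, lower, and 3 hepatocyte genes, Hnf4a, Cps1 and Apob, higher. The neutrophil genes and Id3 kept their calls in it. With the standard diet, where 7 T and NK cell genes were tested, 0 of these genes were called, 0 also at an unadjusted p below 0.05. The part of these cells in the changes of the 10 genes was not tested.

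Within groups, mice that were high for one member tended to be high for the others. After the mean of each group was subtracted from log2(CPM + 0.5), the 45 pairs of members had Pearson's r from 0.369 to 0.94 over 36 libraries, with a median of 0.824. By permutation within groups with 100000 shuffles, 44 of the 45 pairs had a Benjamini-Hochberg adjusted p below 0.05. Gpnmb and Itgax followed each other most closely, with r = 0.94 and Spearman's rho = 0.951 (permutation p = 1e-05 for both, the smallest these shuffles can give, adjusted 1.5e-05 and 1.61e-05), and r = 0.913 without the 2 farthest libraries. Within the 4 groups this r was 0.906, 0.965, 0.956 and 0.991. Trem2 and Gpnmb had r = 0.899 and rho = 0.88 (permutation p = 1e-05 for both, adjusted 1.5e-05 and 1.61e-05), and r = 0.871 without the 2 farthest libraries. Spp1 and Lpl had the weakest relation, with r = 0.369 (permutation p = 0.0729, adjusted 0.0729) and rho = 0.393 (permutation p = 0.0266, adjusted 0.0266), and r = 0.283 without the 2 farthest libraries. The members' median r with the other 9 was 0.896 for Lgals3, 0.895 for Trem2, 0.888 for Cd63 and 0.878 for Gpnmb, and lowest for Spp1 (0.654) and Lpl (0.619). All these values share the library and its scaling.

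**Figure D3:**
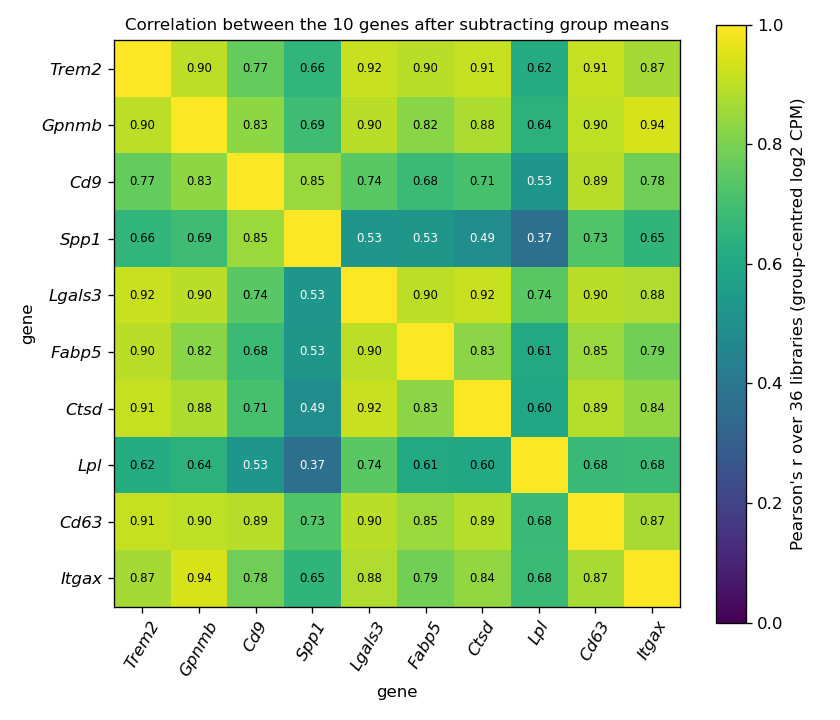
Pearson's r between the 10 genes (both axes) over 36 libraries, on log2 CPM after subtraction of group means. Colour runs from 0 to 1, and the number is r. Spp1 and Lpl have the darkest rows, meeting at 0.37, and Gpnmb with Itgax reads 0.94.

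Among 14090 genes, those outside the 10 whose levels were most like Trem2 were Ctss (r = 0.927), Tyrobp (0.924), Ctsk (0.92), Bcl2a1b (0.911) and Pkm (0.906). Ctss and Ctsk encode lysosomal cysteine proteases. The genes most like Gpnmb were Anxa1 (r = 0.942), Ctsk (0.934), Mfge8 (0.931), C3ar1 (0.928) and Gpr137b (0.924). Trem2 and Tyrobp had r from 0.842 to 0.989 within the 4 groups. These genes were picked as the highest of all, so their r carries no test. Bcl2a1b belongs to a family of near-identical copies, and its count is uncertain.

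For Spp1 the genes most alike were others, a pattern chosen after its values were seen. The gene most like it was Epcam, an adhesion protein of bile duct epithelium, with r = 0.974 over 36 libraries and 0.991, 0.963, 0.907 and 0.993 within Control_HFD, Treated_HFD, Control_Standard_diet and Treated_Standard_diet. Spint1 (0.959), Tspan8 (0.952), Col6a3 (0.951) and Scara3 (0.95) came next, of which Col6a3 encodes a collagen chain of the matrix. With 7 bile duct markers, the median r was 0.891 for Spp1 and 0.815 for Cd9, against 0.599 for Trem2, 0.67 for Gpnmb and 0.348 for Lpl. Epcam had medians of 24.99 CPM in Control_HFD, 12.4 in Treated_HFD, 10.48 in Control_Standard_diet and 10.83 in Treated_Standard_diet. The part of bile duct cells in the level of Spp1 was not tested.

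With Adgre1, the members had r from 0.154 (Spp1) to 0.541 (Lpl). Trem2 and Adgre1 had r = 0.408 and rho = 0.476 (permutation p = 0.0227 and 0.00581, adjusted over 30 relations 0.04 and 0.0174), with r = 0.412 without the 2 farthest libraries. Within groups that r was 0.552, 0.3, 0.719 and -0.287, so it did not hold in Treated_Standard_diet. With Clec4f, Spp1 had r = -0.754 and rho = -0.736 (permutation p = 1e-05 for both, the smallest possible, adjusted 0.00015), with r = -0.696 without the 2 farthest libraries and -0.657 to -0.918 within groups. Trem2 and Clec4f had r = -0.461 and rho = -0.312 (permutation p = 0.00787 and 0.0681, adjusted 0.0197 and 0.102), and r was -0.19 without the 2 farthest libraries, so over all mice the relation rests on them. Within the 4 groups it was -0.362, -0.742, -0.029 and -0.828, and thus near 0 in Control_Standard_diet. With the summed hepatocyte markers, Spp1 had r = -0.804 and rho = -0.755 (permutation p = 1e-05 for both, adjusted 0.00015), with r = -0.764 without the 2 farthest libraries.

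**Figure D4:**
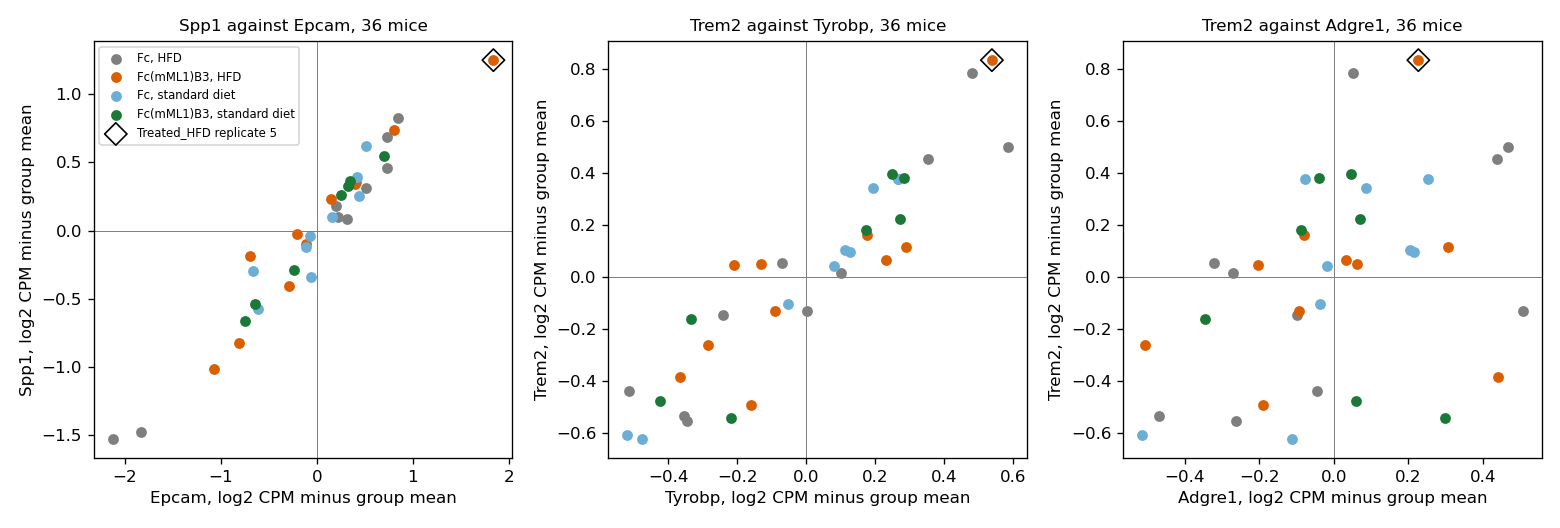
Log2 CPM minus the group mean in 36 mice, coloured by group, for Spp1 against Epcam, Trem2 against Tyrobp and Trem2 against Adgre1 (x axes, second gene; y axes, first gene), with replicate 5 of Treated_HFD framed. Points lie along a line in the first and second panels (r = 0.974 and 0.924) and scatter in the third (r = 0.408).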

How the data were processed

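Liver RNA of 36 mice was sequenced as paired ends from directional libraries, and groups were taken from the sample titles. The authors trimmed reads with fastp, removed ribosomal RNA with Bowtie2 2.4.5, aligned to mm10 with STAR 2.7.10a and counted reads per gene with featureCounts of Subread 2.0.3. The deposited values are these raw counts, without normalization. Each end was counted as a read, reads with several alignments were left out, and strand was not used, so that antisense reads cannot be told apart.

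From the counts, the groups within each diet were compared by edgeR 4.0.16 (R 4.3.3) and its quasi-likelihood F-test, with TMM scaling, filterByExpr and Benjamini-Hochberg adjustment over all genes tested. Calls have an adjusted p below 0.05 with no limit on fold. Comparisons across the experiments and the interaction used 1 fit over 36 libraries and 14105 genes. A standard error is the log2 fold change over the square root of F. P-values measure the spread between mice of these groups. Correlations used log2(CPM + 0.5) minus group means, with 100000 shuffles within groups. Fits were tested on simulated data. Alternatives were DESeq2 1.42.0, limma-voom (limma 3.58.1), other scalings, filters and thresholds, index series, a replicate block and fits without single libraries, and 3 for the correlations, and the other gene lists without replicate 5 of Treated_HFD, were chosen after seeing the data.

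The members, the lists of other genes and the tests were chosen with earlier results of these data known. The genes named are the 10 members, up to 3 genes with the smallest p of each list and comparison, 8 direct partners, and the 5 genes most like Trem2 and Gpnmb. Others named were chosen after their values were seen, and some genes of the lists are not reported here. Some lists share genes, such as Cd68, Tyrobp and Fabp4. At these depths, from 14949035 to 28466853 counts, the least read member had 250 reads or more in each library.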

Additional observations from a re-analysis of the deposited data

Results flagged for a closer look

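Within each group, of 7 to 10 mice, the gap between the highest or lowest value and its neighbour was compared with Dixon's 95% limit for each member and group, 40 tests in all, of which chance alone passes about 1 in 20. Of these, 7 passed, and all 7 were the same mouse, replicate 5 of Treated_HFD, as the highest of 10. The members follow each other within groups (median r 0.824 over the pairs), so the 40 tests are not independent. A single mouse can thus pass several, and the 7 do not count as separate results. Trem2 stood at 49.73 CPM (next 31.03), Gpnmb at 766.5 (next 445.8), Cd9 at 77.13 (next 47.93), Lgals3 at 219.7 (next 139.8), Fabp5 at 123.8 (next 80.17), Cd63 at 143.5 (next 78.0) and Itgax at 52.45 (next 33.18). The same library had the lowest total count of the 36 and, within its group, the lowest summed hepatocyte markers and the highest summed macrophage, bile duct and stellate cell markers, and the part of these in its values was not tested.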

How the results depend on the processing

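The number of members called under the HFD, 1 as reported, was 2 with DESeq2, 3 with limma-voom, 3 in the fit over all 36 libraries, 0 with either index series of treated libraries alone, and 0 when a fold change above 1.5 (adjusted p below 0.05) or above 2 (adjusted p below 0.1) was required. Each library left out in turn gave 0 to 7, with 7 without Treated_HFD replicate 5, 2 without Control_HFD replicate 5 and 0 in 11 of 20 fits. The share of all genes called also moved, from 14.8% as reported to 21.3% without Treated_HFD replicate 5. For the other alternatives in this section that share is not given here, so their counts cannot be set against it. Under the standard diet the number, 3 as reported, was 1 in the fit over all 36 libraries, 1 with a fold change above 1.5 and 0 above 2, and 1 to 4 with each library left out. From the HFD to the standard diet with Fc it was 8 as reported, 5 with a fold change above 1.5, 0 above 2, and 7 to 9 with each library left out. With Fc(mML1)B3 it was 5 as reported, 0 with a fold change above 2, and 4 to 6 with each library left out. The interaction gave 0 throughout, with each library left out 0 to 0. Pairs of members with related levels were 44 as reported and 45 with Spearman's rho, without the 2 farthest libraries or without TMM.

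Mouse numbers repeat between groups. Deviations from group means of same-numbered mice had correlations from -0.661 to 0.325 under the HFD (2 of 10 over 0.1) and from -0.181 to -0.022 under the standard diet (0 of 7 over 0.1), with no mouse closest to its own number. Across the experiments they ran from -0.282 to 0.1 with Fc and from -0.151 to 0.274 with Fc(mML1)B3 (3 of 7 over 0.1, 1 closest to its own number), so the numbers were not taken to pair mice. With a replicate block, 0 members were called under the HFD and 1, Lpl, under the standard diet.

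Signs changed only where no test passed. From the HFD to the standard diet with Fc(mML1)B3, Spp1 was 0.0657 with limma-voom, and Fabp5 was -0.0435 with upper-quartile scaling, -0.0113 with library totals, -0.0216 with the replicate block and -0.0696 to 0.166 with a library left out. With a library left out, the interaction of Trem2 ran from -0.056 to 0.2004, of Gpnmb from -0.247 to 0.0893, of Lgals3 from -0.0708 to 0.188 and of Itgax from -0.188 to 0.0906. The causes were not tested. Of the other values of single members, 459 kept their sign and side of the threshold, 14 lost and 18 gained a call.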

Other observations

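Galectin genes other than Lgals3 and fatty acid binding proteins other than Fabp5 were read beside the members. Of 5 other genes tested from the galectin list, which also holds the galectin-binding Lgals3bp, 0 were called by edgeR under the HFD, and 0 had an unadjusted p below 0.05. Under the standard diet 1 was called, Lgals9, a galectin that binds TIM-3, which fell by 0.29 ± 0.05 (SE) on the log2 scale (adjusted p = 0.000308). From the HFD to the standard diet with Fc, Lgals1 fell by 0.64 (adjusted p = 2.63e-06 by edgeR) and Lgals3bp, whose product binds galectin-3, by 0.30 (adjusted p = 0.000247), while Lgals9 rose by 0.28 (adjusted p = 0.00831). Of 4 other fatty acid binding protein genes tested, 0 were called by edgeR under the HFD and 1, Fabp4, under the standard diet. With Fc, Fabp4 fell by 0.83, Fabp2 by 0.55 and Fabp3 by 1.74 from the HFD to the standard diet (adjusted p from 0.000161 to 0.00254), a comparison in which Fabp5 did not pass the test.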
